A study of Mus musculus with 2 samples.

Results

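The SLC25 mitochondrial carriers and their relatives comprised 52 genes among the 21461 nuclear protein-coding genes that were matched by identifier in both libraries, of 42462 annotated genes in all. They were selected by a rule on names, as protein-coding genes with a GENCODE mouse symbol made of Slc25a and a number, together with Ucp1, Ucp2, Ucp3, Mtch1 and Mtch2, and they lie on 19 chromosomes. The cells were G1E-ER4, an immortalized mouse erythroid line that grew out of Gata1-null cells and carries GATA-1 fused to the hormone-binding domain of the oestrogen receptor. Both libraries came from cells kept for 24 hours in 10 nM 17beta-estradiol, which activates the fusion protein, and polyadenylated RNA was read from a single end. They form 1 group of 2 biological replicates by their labels, so each value describes the induced state of a cell line, no change on induction can be read from it and no test between conditions was possible. A ± gives the SD about the mean of both libraries (n = 2), and nothing in the labels tells how separate their cultures were.

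Carriers of this family are membrane proteins of the mitochondrial inner membrane, with a few in the outer membrane or in peroxisomes. They move nucleotides, carboxylates, amino acids, cofactors, phosphate and iron between the cytosol and the matrix. A developing red cell depends on several of them, because haem synthesis begins and ends in the matrix: glycine enters for the opening step and iron enters for the closing step. The mitoferrins, Slc25a37 and Slc25a28, import the iron.

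Depth was 20412826 expected counts for replicate 1 against 18564086 for replicate 2. At 0 counts, a level of up to 3 counts stays possible, or 0.147 and 0.162 CPM (counts per 1000000 counts), a limit that covers counting error only. All 9 measured erythroid markers were detected, with summed levels of 107444 and 124111 TPM (transcripts per 1000000 transcripts, a level scaled by transcript length), while Ahsp was not analysed here. The marker lists for mast cells, adipocytes, liver, heart and muscle, and testis had 0 of 5 genes detected each, and their summed levels were at most 0.11 TPM in either library. Of 5 macrophage markers 1 was detected, Cd68, with a list sum of 2.80 and 3.51 TPM. Of 5 megakaryocyte markers 4 were detected, with list sums of 56.1 and 61.9 TPM, and the part of such transcripts in the carrier levels was not tested.

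Of the 52 carrier genes, 36 (69.2%) were detected, meaning 1 TPM or more in both libraries. Among all nuclear protein-coding genes 41.2% passed the same rule. At 100 TPM or more in both libraries there were 10 carrier genes (19.2%), beside 5.47% of nuclear protein-coding genes. The median level over all members was 5.27 TPM, beside 0.08 TPM over nuclear protein-coding genes. Among detected genes alone the medians were 19.0 TPM for the members and 20.7 TPM for nuclear protein-coding genes, so the carriers that were detected had a typical level. In bulk RNA, fewer cells with a transcript and less of it per cell cannot be told apart.

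The members summed to 3902 TPM in replicate 1 and 4127 TPM in replicate 2, which was 0.490% and 0.507% of nuclear protein-coding TPM. A few genes held most of this sum. Ucp2 alone held 33.9% and 33.0% of it, and the 5 highest members held 72.4% in each library. Ordered by mean TPM, the 5 highest were Ucp2, Slc25a5, Slc25a39, Slc25a38 and Slc25a37. In this order 20 of the 35 neighbouring pairs of detected members had overlapping ranges over the libraries. Slc25a5 and Slc25a39 overlapped, as did Slc25a11 with Slc25a3, Slc25a1 with Slc25a51 and Slc25a51 with Mtch1. The ranges of Slc25a39, Slc25a38, Slc25a37 and Slc25a11 followed each other without overlap.

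**Figure D1:**
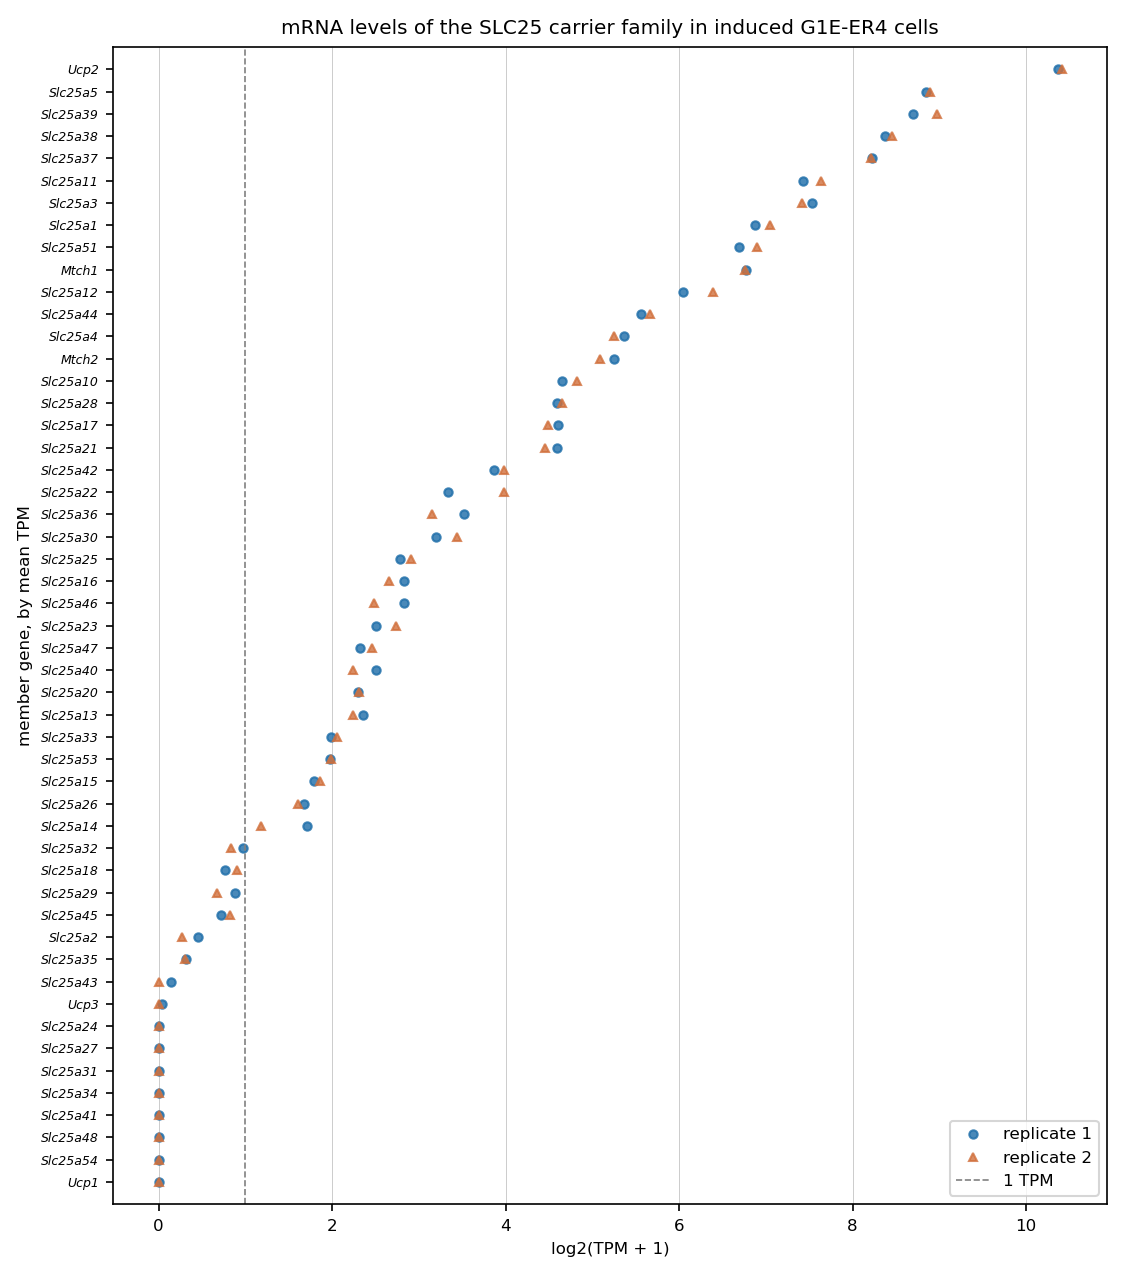
Levels of the members on the axis log2(TPM + 1), ordered by mean TPM, with a circle for replicate 1, a triangle for replicate 2 and a dashed line at 1 TPM. Ucp2 stands alone at the top with 1323 and 1363 TPM, and 8 members at the bottom are listed at 0 in both libraries.

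Grouped by what they carry, the uncoupling proteins and their relatives had the highest sum, 1334 and 1374 TPM, nearly all of it Ucp2. Glycine and glutathione carriers followed with 750 and 855 TPM from 3 genes. The ADP/ATP and phosphate carriers summed to 682 and 683 TPM from 4 genes. The carriers of di- and tricarboxylates held 335 and 377 TPM, and the iron carriers 322 and 321 TPM. Below these came nucleotide and cofactor carriers with 176 and 192 TPM from 9 genes, amino acid and carnitine carriers with 137 and 164 TPM from 12 genes, and the outer membrane members with 151 and 145 TPM from 3 genes. Carriers that exchange ATP-Mg for phosphate, which set the size of the matrix adenine nucleotide pool, summed to 10.6 and 12.2 TPM over 5 genes, or 0.271% and 0.295% of the family's sum.

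**Figure D2:**
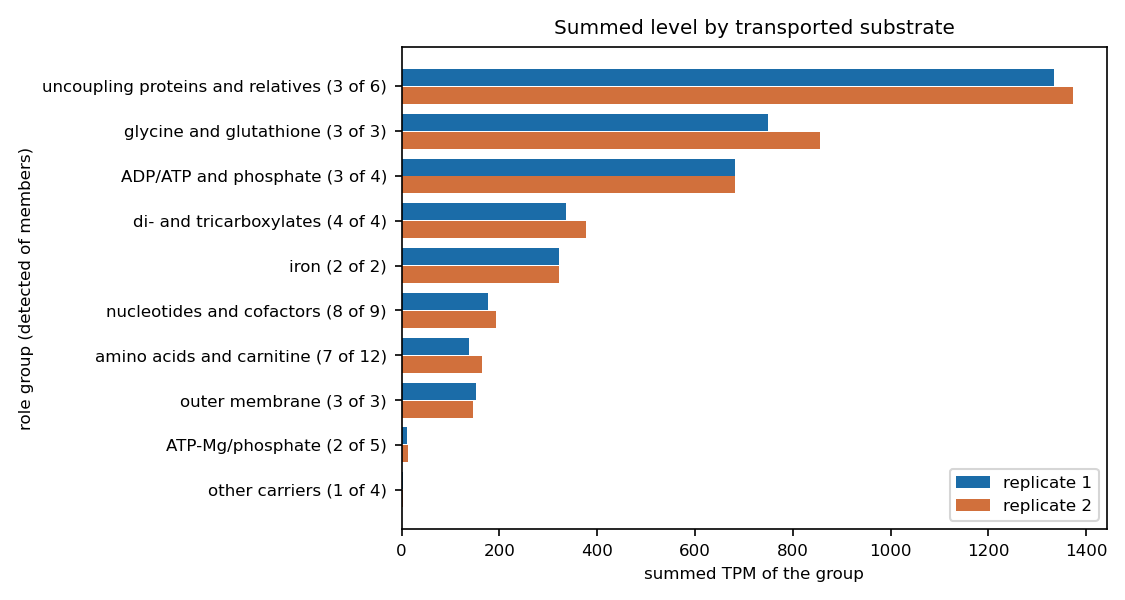
Summed TPM of each role group, upper bar replicate 1 and lower bar replicate 2, with the number of detected members of all members in the label. Uncoupling proteins and relatives lead at 1334 and 1374 TPM, and the ATP-Mg/phosphate group, with 2 of 5 members detected, lies near the axis at 10.6 and 12.2 TPM.

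The mitoferrins differed from each other by more than 10-fold. Slc25a37 (mitoferrin 1, the form known as necessary for iron delivery to haem in erythroid cells) was at 299 TPM in replicate 1 and 297 TPM in replicate 2, from 17428 and 14948 expected counts. It lies on chromosome 14 from 69241848 to 69285112 on the GRCm38 assembly. Slc25a28 (mitoferrin 2, the form of most other cells) was at 23.2 and 24.1 TPM, from 550 and 521 expected counts, and lies on chromosome 19 from 43663801 to 43674881. The ranges did not overlap, and Slc25a37 exceeded Slc25a28 by 3.66 ± 0.05 on the log2 scale of TPM, or 12.6-fold. With expected counts, which are not divided by length, the difference was 4.91 on the log2 scale. The coding sequences of both genes were 72.1% identical over 1005 aligned bases, and no 36-base word, the length of the reads, was shared between their transcripts.

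Each mitoferrin held 3 copies of the carrier signature, the short repeated motif of this family. In the searched form it is a proline, any residue, an acidic residue, any residue, any residue, and a lysine or arginine, read in frame from the GENCODE coding sequence. The copies are shown because they are where the paralogs can be compared position by position, with capitals on the bases that differ between the genes. Codons are counted from the start codon of Slc25a37-201 and Slc25a28-201.
Slc25a37 codons 65 to 70: ccgGtGgactCcgtGaag
Slc25a28 codons 92 to 97: ccgAtCgactGcgtCaag
Slc25a37 codons 163 to 168: ccagcAgaagtGgtGaaA
Slc25a28 codons 190 to 195: ccagcGgaagtCgtCaaG
Slc25a37 codons 254 to 259: ccGctggacgtCtgCaaa
Slc25a28 codons 281 to 286: ccActggacgtTtgTaaa
The first 2 copies differed at 4 bases each and the last at 3.

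Most of the Slc25a37 signal was assigned to transcripts that do not encode the full carrier. Slc25a37-204, annotated for nonsense-mediated decay (a surveillance route that degrades mRNA with an early stop), was at 150 and 164 TPM, or 50.3% and 55.1% of the gene. Slc25a37-203, a retained-intron transcript of 5927 bases, was at 82.7 and 65.9 TPM, or 27.7% and 22.2%. The coding transcript Slc25a37-201 was at 65.8 and 67.3 TPM, or 22.0% and 22.7%, from 4367 and 4071 expected counts. Slc25a37-203 and Slc25a37-204 together held 78.0% and 77.3% of the gene's TPM and 74.9% and 72.8% of its expected counts. Their order turned with the scale: of the expected counts Slc25a37-204 held 30.1% and 34.8%, and Slc25a37-203, the longer transcript, held 44.9% and 37.96%.

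The transcripts part at the end of exon 2. In Slc25a37-201 this exon has 229 bases, from 69249394 to 69249622 on chromosome 14, and is followed by an intron of 1756 bases. In Slc25a37-204 the exon runs on into that intron, to 69248883, for 740 bases in all, and its annotated coding sequence ends 107 bases past the splice site, at 69249287. Reads across this point can tell the forms apart, so the 40 bases around it are shown, read on the minus strand, in lower case for exon 2 and in capitals for what follows it.
Slc25a37-201: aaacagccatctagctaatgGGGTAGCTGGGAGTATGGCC
Slc25a37-203 and Slc25a37-204: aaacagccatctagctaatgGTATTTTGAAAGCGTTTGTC
The capitals of the upper line are exon 3 and those of the lower line are intron 2, which opens with the GT of a splice donor. Reads of 36 bases that lie elsewhere in the shared exons fit several of these transcripts, so the shares are estimates.

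On protein-coding transcripts alone, Slc25a37 was at 66.6 ± 1.26 TPM and ranked 10 among the members in place of 5. Its excess over Slc25a28, which has 1 listed transcript, was then 1.50 on the log2 scale in place of 3.66. The direction stayed and the size depended on which transcripts were counted. The listed Slc25a28 transcript is protein-coding, so this step could lower Slc25a37 only. The search for shared words covered 3877 words of Slc25a28, more than this transcript of 1514 bases can hold. Other Slc25a28 transcripts were thus annotated but not listed here, and could be assigned no reads. The value of 1.50 may therefore be too low, and this was not tested.

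Slc25a38, the carrier linked to glycine import for haem synthesis, was at 332 TPM in replicate 1 and 351 TPM in replicate 2. It exceeded Slc25a37 by only 0.20 ± 0.06 on the log2 scale, or 1.15-fold, with separate ranges. The order of these haem-related carriers turned with the scale: on expected counts Slc25a38 was below Slc25a37 at -1.45, and on protein-coding transcripts alone it was above it by 1.53. Slc25a38-201, the coding transcript of 1791 bases, held 41.4% and 44.8% of the gene's TPM and 65.4% and 68.5% of its expected counts. Transcripts without annotated coding sequence held 43.1% and 40.9% of TPM, mainly Slc25a38-203 of 673 bases and Slc25a38-207 of 492 bases.

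Slc25a39 and its relative Slc25a40 import glutathione, the main thiol antioxidant, into mitochondria. Slc25a39 was at 414 TPM in replicate 1 and 500.4 TPM in replicate 2. Slc25a40 was at 4.68 and 3.71 TPM, from 206 and 148 expected counts. This was the widest ratio among the fixed pairs in which both members were detected, 6.77 ± 0.43 on the log2 scale of TPM, or 109-fold, and 5.32 on expected counts. Slc25a39 was spread over several transcripts annotated as protein-coding, and the leading one differed between the libraries. Slc25a39-201, of 1685 bases, held 37.9% in replicate 1 against 26.2% in replicate 2. Slc25a39-205, of 728 bases, held 35.4% against 39.5%, and Slc25a39-212, of 740 bases, held 23.5% against 31.7%. These last 2 are shorter than the 1077 coding bases of Slc25a39-201, so they cannot hold the full coding sequence. Transcripts without coding sequence held only 0.42% and 0.78% of it.

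The genes that act around these carriers were also measured. All 9 enzymes of haem synthesis were detected and 7 passed 100 TPM, with a list median of 423 TPM. Of 14 measured genes on a list of mitochondrial iron-sulphur and haem partners, all were detected and 5 passed 100 TPM, with a median of 54.4 TPM. The highest was Tmem14c, which acts in porphyrin transport at the inner membrane, at 679 ± 59.4 TPM, followed by Abcb10, an inner membrane transporter reported to stabilise mitoferrin 1, at 499.8 ± 28.7 TPM. Glrx5, which passes iron-sulphur clusters on, was at 383 ± 15.6 TPM, above all members except Ucp2, Slc25a5 and Slc25a39.

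ADP/ATP carriers exchange matrix ATP for cytosolic ADP. Slc25a5, the form of proliferating cells, was at 458 TPM in replicate 1 and 476 TPM in replicate 2. Slc25a4, the form of heart and muscle, was at 40.3 and 36.9 TPM. The ratio was 3.60 ± 0.13 on the log2 scale of TPM, or 12.1-fold, 2.99 on expected counts and 3.61 on protein-coding transcripts alone. Slc25a31, the testis form, had 0 counts in both libraries. Only 54.3% of the 36-base words of Slc25a5 were found in no other gene, the lowest share in the family, so its level is the least certain by sequence. The genes sharing its words included 10 pseudogenes, which were assigned 39.5 and 32.9 expected counts beside the 8621 and 7927 of Slc25a5. A retained-intron transcript, Slc25a5-202, held 12.5% of its TPM in replicate 1 and 26.2% in replicate 2.

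Slc25a3 carries phosphate, the other substrate of ATP synthesis, and was at 184 TPM in replicate 1 and 169 TPM in replicate 2. It lay below Slc25a5 at a log2 ratio of -1.40 ± 0.12. The gene has alternative forms of exon 3, of which the shorter is used in most tissues and the longer in heart and muscle. The shorter exon has 122 bases, on chromosome 10 from 91121922 to 91122043, and the longer has 125 bases, from 91122207 to 91122331. They are shown whole, in lower case as transcribed from the minus strand, because a read in either assigns the gene's reads to a form, and they are 63.1% identical.
Slc25a3 exon of 122 bases: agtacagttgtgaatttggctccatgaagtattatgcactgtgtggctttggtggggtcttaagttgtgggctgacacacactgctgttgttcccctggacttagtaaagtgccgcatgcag
Slc25a3 exon of 125 bases: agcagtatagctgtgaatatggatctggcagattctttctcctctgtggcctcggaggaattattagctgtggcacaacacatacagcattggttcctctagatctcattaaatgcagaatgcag
Only transcripts with an annotated coding sequence were searched for these exons. Those with the exon of 122 bases were assigned 4446 and 3730 expected counts, or 176 and 162 TPM. Those with the exon of 125 bases were assigned 0 in both libraries, and the heart and muscle markers were near 0 as well, with sums of 0.09 and 0.07 TPM. The retained-intron transcript Slc25a3-208, of 4039 bases, was not searched and was assigned 452 and 380 expected counts.

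The ATP-Mg/phosphate carriers were low or absent. Slc25a25 was at 5.89 TPM in replicate 1 and 6.50 TPM in replicate 2, and Slc25a23 at 4.69 and 5.69 TPM, so the ranges lay close without overlap. Slc25a24, Slc25a41 and Slc25a54 had 0 counts in both libraries. Against a floor of 3 counts per library, Slc25a24 was at least 50.5-fold lower than Slc25a23 in replicate 1 and at least 55.8-fold lower in replicate 2.

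Ucp2, whose protein is a member of the uncoupling family found in many blood cells, was the highest carrier gene. Its level was 1323 TPM in replicate 1 and 1363 TPM in replicate 2, from 57255 and 55501 expected counts. It lies on chromosome 7 from 100493337 to 100502020. The coding transcript Ucp2-202, of 3988 bases, held 64.0% and 66.6% of this TPM but 93.8% and 94.4% of the counts. Most of the rest of the TPM was on Ucp2-208, of 464 bases and without coding sequence, with 22.2% and 28.1%. On protein-coding transcripts alone Ucp2 was at 882 ± 44.1 TPM and still ranked 1.

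The other uncoupling genes were near or at 0. Ucp1, which drives heat production in brown fat, had 0 counts in both libraries, as did all but 1 of the adipocyte markers, of which Fabp4 had 4 and 0 counts. Ucp3, the muscle form, had 1 count in replicate 1 and 0 in replicate 2, although it is 75.4% identical to Ucp2 over the aligned coding sequence. Over both libraries Ucp2 exceeded Ucp3 87206-fold on a length-scaled basis, with an exact 95% interval from 15651 to 3444481 that covers counting error only. Of the more distant relatives, Slc25a30 was at 9.02 ± 1.15 TPM, Slc25a14 at 1.77 ± 0.721 TPM, and Slc25a27 had 0 counts.

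**Figure D3:**
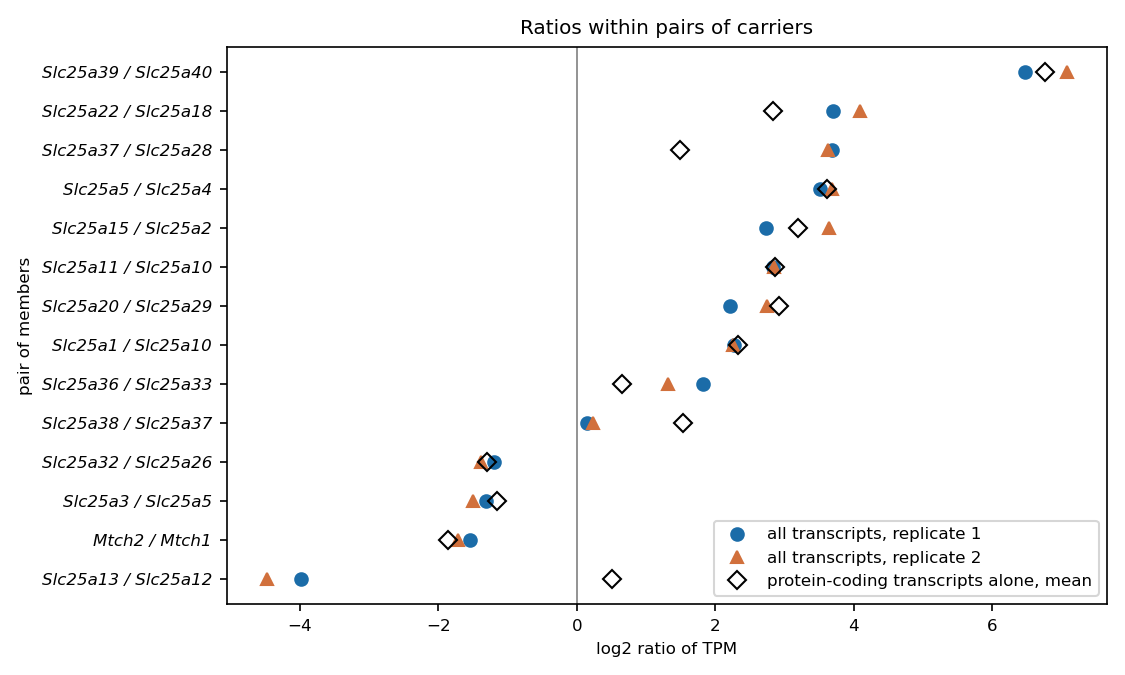
Log2 ratio of TPM between the members of 14 of the 17 fixed pairs, with a circle for replicate 1, a triangle for replicate 2 and an open diamond for the mean on protein-coding transcripts alone. Slc25a37 over Slc25a28 moves from 3.66 to 1.50 and Slc25a13 over Slc25a12 from -4.23 to 0.51 when protein-coding transcripts alone are counted.

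The carriers of di- and tricarboxylates were all detected. Slc25a11, which exchanges oxoglutarate for malate in the malate-aspartate shuttle, was the highest at 172 TPM in replicate 1 and 198 TPM in replicate 2. It shares 7.11% of its words with the adjoining gene Rnf167, itself at 92.7 and 92.6 TPM, so some of its reads could belong to either gene. Slc25a1, the citrate carrier that supplies acetyl units for lipid synthesis, was at 116 and 131 TPM. Slc25a10, the dicarboxylate carrier, was at 24.1 and 27.3 TPM. Slc25a11 exceeded Slc25a10 by 2.85 ± 0.01 and Slc25a1 exceeded it by 2.27 ± 0.01 on the log2 scale, the narrowest SDs among the pairs. Slc25a21, the oxodicarboxylate carrier, was at 22.0 ± 1.54 TPM.

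The aspartate-glutamate carriers complete the malate-aspartate shuttle, and here gene level and estimated coding level parted. Slc25a12 (aralar) was at 65.2 TPM in replicate 1 and 82.8 TPM in replicate 2. Slc25a13 (citrin) was at 4.12 and 3.72 TPM, so that it lay below Slc25a12 at a log2 ratio of -4.23 ± 0.35, or 18.8-fold, and of -3.51 on expected counts. Slc25a12-207, annotated for nonsense-mediated decay, held 55.7% and 48.5% of the Slc25a12 TPM, and Slc25a12-205, without coding sequence, held 36.4% and 38.8%. The coding transcript Slc25a12-206, of 6351 bases, was at 2.98 and 2.53 TPM, from 302 and 233 expected counts. On protein-coding transcripts alone Slc25a13 was above Slc25a12 by 0.51 on the log2 scale, the opposite order.

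Slc25a12-207 lacks exon 4 of Slc25a12-206, 116 bases on chromosome 2 from 71333605 to 71333720, and ends after 664 bases of the last exon in place of 4291. The joins after exon 3 are shown because they separate these forms, with exon 3 in lower case and the next exon in capitals, read on the minus strand.
Slc25a12-206: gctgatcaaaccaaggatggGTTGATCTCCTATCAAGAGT
Slc25a12-207: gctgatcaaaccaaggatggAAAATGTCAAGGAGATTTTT
The upper join is also in Slc25a12-201, a transcript without coding sequence. Coverage along the transcripts was not analysed here.

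By annotated class, few members of the family had most of their TPM outside protein-coding transcripts. This class also holds transcripts too short for the full coding sequence, so the count below does not cover them. Examples are Slc25a39-205, Slc25a39-212 and Slc25a51-205, which has 718 bases where Slc25a51-201 has 315 codons. In 38 members each library held 20 expected counts or more, and 3 of these had under 50% of their TPM on protein-coding transcripts in both libraries. They were Slc25a37, Slc25a12 and Slc25a53. This is 7.89%, not above the 11.8% of the 8874 nuclear protein-coding genes that passed the same count minimum. Of these 38 members, 9 had 1 listed transcript, each protein-coding, so they could not fall under 50%. The share of such genes among the 8874 is not given here, which limits the comparison. Of the other 29 members, 9 had a leading transcript with over 90% of TPM in both libraries. Replicates 1 and 2 had different leading transcripts for 4 members, Slc25a39, Slc25a44, Slc25a22 and Slc25a53. For Slc25a53, at 2.94 and 2.96 TPM, coding transcripts held 0.85 and 0.77 TPM, below the detection rule.

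**Figure D4:**
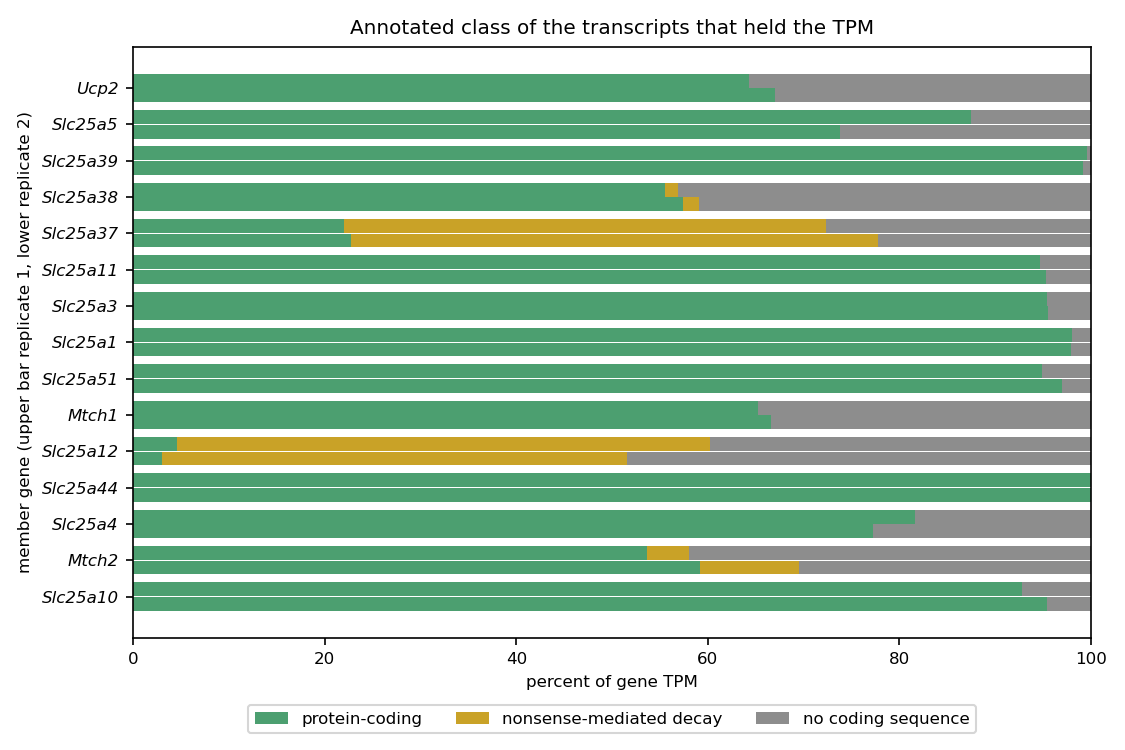
Percent of gene TPM on protein-coding transcripts (green), transcripts annotated for nonsense-mediated decay (yellow) and transcripts without coding sequence (grey) for the 15 members with the highest mean TPM, upper bar replicate 1 and lower bar replicate 2. Slc25a37 and Slc25a12 are the 2 genes in which green is the smaller part, with 22.0% and 4.57% of TPM on their coding transcripts Slc25a37-201 and Slc25a12-206 in replicate 1.

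The other carriers with simple transcript structure can be read as coding levels. Slc25a3-201 held 95.5% and 95.2% of its gene, Slc25a11-201 93.6% and 93.4%, Slc25a1-201 98.0% and 94.6%, and Slc25a10-201 92.8% and 95.4%. Slc25a4-201 held less, 81.6% and 77.3%, with the retained-intron transcript Slc25a4-202 at 18.4% and 22.7%. Slc25a51 and Slc25a44 were each spread over several transcripts annotated as protein-coding.

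Among the amino acid and carnitine carriers, 7 of 12 were detected. Slc25a44, which imports branched-chain amino acids, was the second highest of them by gene TPM after Slc25a12, at 46.1 TPM in replicate 1 and 49.6 TPM in replicate 2. On protein-coding transcripts alone the order turned, with Slc25a44 at 47.8 ± 2.49 TPM and Slc25a12 at 2.755 ± 0.318 TPM. Slc25a22, a glutamate carrier, was at 9.13 and 14.8 TPM, and its relative Slc25a18 at 0.70 and 0.87 TPM, under the detection rule in both libraries. The ratio was 3.90 ± 0.27 on the log2 scale, or 14.9-fold, and 2.84 on protein-coding transcripts alone. Much of Slc25a22 was on Slc25a22-205, a retained-intron transcript, with 19.6% in replicate 1 and 41.4% in replicate 2, and its level on coding transcripts was 4.83 and 6.46 TPM.

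Slc25a20, the carnitine/acylcarnitine carrier of fatty acid oxidation, was at 3.91 TPM in replicate 1 and 3.95 TPM in replicate 2. Slc25a29, a carrier of basic amino acids, was at 0.84 and 0.59 TPM and not detected. Slc25a20 exceeded it by 2.48 ± 0.37 on the log2 scale, or 5.58-fold. Slc25a15, the ornithine carrier of the urea cycle, was at 2.46 and 2.62 TPM. Its copy without introns, Slc25a2, had 8 and 4 expected counts, or 0.37 and 0.21 TPM, and Slc25a15 exceeded it 9.11-fold, by 3.19 ± 0.64 on the log2 scale, the widest SD among the pairs, and by 4.55 on expected counts. Slc25a47, known from liver, was at 4.26 ± 0.368 TPM, while the 5 liver markers had 0 counts in both libraries.

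The nucleotide and cofactor carriers were detected in 8 of 9 cases. Slc25a51, which imports NAD, was the highest at 103 TPM in replicate 1 and 119 TPM in replicate 2. Slc25a17, a peroxisomal carrier of cofactors, was at 22.4 ± 1.29 TPM. Slc25a42, the coenzyme A carrier, was at 14.2 ± 0.919 TPM, and Slc25a16, a relative of it, at 5.69 ± 0.580 TPM. Both pyrimidine nucleotide carriers were present: Slc25a36 at 10.4 and 7.90 TPM, and Slc25a33 at 2.96 and 3.16 TPM, 2.97-fold lower. This difference was 1.57 ± 0.35 on the log2 scale, but 0.65 on protein-coding transcripts alone and 2.24 on expected counts.

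The folate carrier Slc25a32 and the S-adenosylmethionine carrier Slc25a26 both serve reactions that move methyl or other single-carbon groups. Slc25a26 was at 2.20 TPM in replicate 1 and 2.04 TPM in replicate 2. Slc25a32 was at 0.96 and 0.78 TPM, from 45 and 33 expected counts, just below the detection rule. The log2 ratio of Slc25a32 to Slc25a26 was -1.29 ± 0.13, and -0.66 on expected counts. Slc25a14, at 2.28 and 1.26 TPM, was the lowest member inside the rule and Slc25a32 the highest outside it.

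The outer membrane members are not solute carriers of the usual kind. Mtch1 was at 108 TPM in both libraries and Mtch2, which inserts proteins into the outer membrane, at 37.0 and 33.0 TPM. Mtch2 lay below Mtch1 at a log2 ratio of -1.63 ± 0.12, or 3.09-fold. Slc25a46, which acts in mitochondrial shape, was at 5.35 ± 1.09 TPM. Of the genes that bring carriers into the inner membrane, the small TIM chaperones, TIM22 and TOM receptors, all 12 were detected, 3 of them above 100 TPM, with a median of 25.9 TPM. The highest was Tomm40, the pore of the outer membrane, at 146 ± 6.75 TPM. Among 12 other mitochondrial transporters 9 were detected, led by the outer membrane channel Vdac1 at 205 ± 20.9 TPM, and the serine carrier gene Sfxn1 was at 37.9 ± 1.41 TPM.

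In all, 16 members were not detected. Of these, 8 had no read in either library: Slc25a24, Slc25a27, Slc25a31, Slc25a34, Slc25a41, Slc25a48, Slc25a54 and Ucp1. For them 3 counts would correspond to between 0.0560 and 0.161 TPM in replicate 1 and between 0.0615 and 0.176 TPM in replicate 2. This is the level that 0 counts can leave unseen. The other 8 had some reads: Slc25a32, Slc25a18, Slc25a29, Slc25a45 at 0.64 and 0.77 TPM, Slc25a2, Slc25a35 at 0.24 and 0.23 TPM, Slc25a43 with 2 and 0 counts, and Ucp3. Slc25a35 shares 26.7% of its words with Rangrf, a gene at 5.73 and 5.32 TPM, so even its few reads are uncertain.

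The libraries gave close values for the members. Of 35 members with a mean of at least 50 expected counts, 0 differed over 2-fold in CPM between the replicates, beside 0.303% of 8588 nuclear protein-coding genes. The log2 ratio of replicate 1 to replicate 2 ran from -0.30 for Slc25a22 to 0.41 for Slc25a46. Its median size was 0.13 for the members and 0.14 for all genes. Of the 35 ratios, 13 were above 0 and 22 (62.9%) below, where 48.1% of all genes were below. Their median was -0.09, beside 0.01 for all genes, so the carriers leaned slightly to replicate 2. The exact 95% interval, which covers counting error only, lay wholly above 0 for 7 members (20%), beside 25.3% of all genes. It lay wholly below 0 for 13 members (37.1%), beside 20.4% of all genes.

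**Figure D5:**
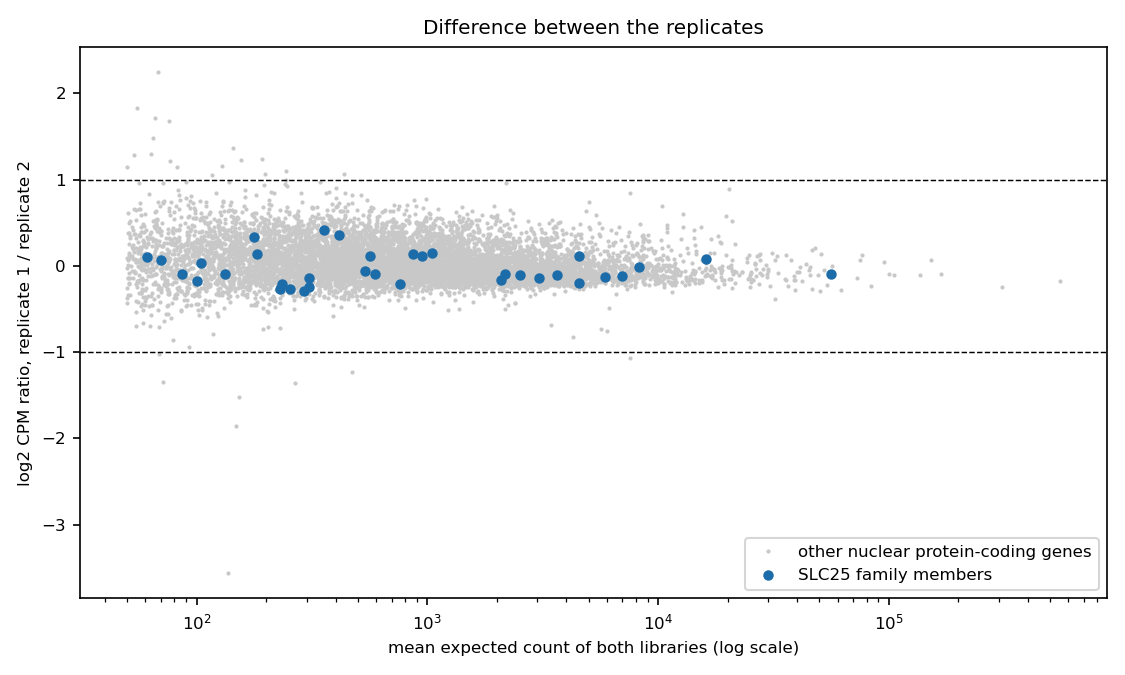
Log2 ratio of CPM, replicate 1 over replicate 2, against the mean expected count of each gene over both libraries. Members are in blue and other nuclear protein-coding genes in grey, with dashed lines at 2-fold. All 35 blue points lie between -0.30 and 0.41, inside the dashed lines.

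Beyond the rule that chose them, the members shared the carrier signature to different degrees. In the coding sequences 30 members held 3 copies, 12 held 2, 5 held 1 and 5 held 0 in this strict form. The 5 without a match were Slc25a51, Slc25a46, Slc25a53, Mtch1 and Mtch2, all detected. Identity between the coding sequences of the fixed pairs ran from 58.7% for Slc25a11 and Slc25a10 to 77.4% for Slc25a5 and Slc25a4, so the most similar pair still differed 12.1-fold in TPM. The GATA words AGATAA and TGATAA were searched on both strands in the 250 bases before each start in the RefSeq promoter table. There 41 of the 52 members had an entry, with 52 windows in all. Slc25a37, Slc25a51 and Slc25a44 were among the members without an entry, which were not searched. A word was found in 3 of these windows (5.77%), those of Slc25a12, Slc25a5 and Slc25a53, beside 16.6% of 32851 windows of all genes. A match is a description of letters in this window alone.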

How the data were processed

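Polyadenylated RNA of 2 libraries in 1 group was analysed, with 20412826 and 18564086 expected counts. Reads were assigned on mm10 with the GENCODE M4 annotation, per the deposited manifests. For the aligner, the quantifier and the use of strand, names or settings were not given in the sources used here. An expected count, per the file headers, stands for each gene and transcript and divides reads among the places they fit. The deposited TPM divides it by effective length and sums to 1000000 per library. The deposited posterior mean TPM includes a prior, so rows without reads are above 0. The deposited percent is each transcript's share of the TPM of its gene. Effective lengths fit reads of 36 bases.

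Symbols, classes, coordinates and coding sequences came from GENCODE M21 on the same assembly. Matched genes held 99.8% of counts in each library. Adult globins held 10.6% and 12.2% of TPM, which lowers every other TPM. Detection meant at least 1 TPM in each library. Ratios between replicates were taken on CPM for genes with a mean of at least 50 counts, with exact Clopper-Pearson intervals at 95%, and TMM factors came from edgeR 4.0.16 in R 4.3.3 as an alternative. Shares of transcripts needed 20 counts in both libraries. Python 3.11.15, pandas 2.3.3, SciPy 1.17.1 and Biopython 1.88 did the rest. The 2-fold call between replicates was tested on simulated counts and the search for shared words on made-up sequences. The other steps were not tested in this way. Protein features had been planned and were replaced by features of the coding sequence.

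The members, role groups, 17 pairs and lists were chosen with earlier results of these data known. Values per library are given for the 15 highest members and for both members of each pair, mean and SD for the other detected members except 1 that is not reported here, and up to 4 genes per other list. Detection on coding transcripts alone was added after seeing the data.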

Additional observations from a re-analysis of the deposited data

How the results depend on the processing

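Detected members numbered 40 at 0.5 TPM, 25 at 5 TPM, 37 with posterior mean TPM, 35 on coding transcripts alone, and 36 with either library left out or with named pseudogenes added. No member passed 2-fold between replicates with TMM scaling, with a mean of 10 counts or with no filter beyond 1 count in each library. With expected counts, which are not divided by length, the log2 ratio was 4.91 for Slc25a37 over Slc25a28, 2.99 for Slc25a5 over Slc25a4, 5.32 for Slc25a39 over Slc25a40 and -1.45, the opposite sign, for Slc25a38 over Slc25a37. On coding transcripts alone it was 1.50 for Slc25a37 over Slc25a28, 1.53 for Slc25a38 over Slc25a37 and 0.51, the opposite sign, for Slc25a13 over Slc25a12. The members' share of nuclear protein-coding TPM, 0.498% ± 0.0121, became 0.710% of expected counts and 0.580% with adult globins left out. The median member level of 5.27 TPM was 19.0 TPM among detected members alone and ran from 4.93 to 5.29 TPM with a library left out. No paired analysis was possible because there was 1 group. Apart from the 4 ratios given on expected counts, single levels, ratios and transcript shares moved by more than the replicate SD in 24 of 57 cases with posterior mean TPM and in 21 of 25 with expected counts, while those 4 ratios moved in 0 cases with posterior mean TPM. With 2 libraries an SD is itself poorly known. Depth limits members under 50 counts, whose ratios between libraries have wide intervals.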

Other observations

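Some members lie close together on a chromosome, and apart from Slc25a54 with Slc25a24 the pairs given here stood at different levels. This feature was chosen after the values were seen. On chromosome 7, Ucp3 from 100472990 to 100486432 had 1 and 0 expected counts, and Ucp2 from 100493337 to 100502020 was at 1323 and 1363 TPM. On chromosome X, Slc25a43 from 36743659 to 36777202 had 2 and 0 expected counts, and Slc25a5 from 36795651 to 36798807 was at 458 and 476 TPM. On chromosome 17, Slc25a41 from 57032773 to 57041654 had 0 counts in both libraries, and Slc25a23 from 57043711 to 57059863 was at 4.69 and 5.69 TPM. On chromosome 3, Slc25a54 from 109080469 to 109116687 and Slc25a24 from 109123149 to 109168457 both had 0 counts in both libraries. On chromosome 12, Slc25a29 from 108825873 to 108835883 was at 0.84 and 0.59 TPM, and Slc25a47 from 108836046 to 108856815 was at 4.26 ± 0.368 TPM (SD, n = 2).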
